A study of Mus musculus with 28 samples.

Results

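Skin from the wound site on day 10 was compared with skin from the earliest time point, across all genes of the deposited count table. Of the 28 libraries of the series, 8 enter this comparison, 4 from day 10 and 4 from the group that the labels call day 0 and use as the control. The study's text has no day 0: it gives wound tissue collected from day 1 on, and it defines day 1 as the day of wounding. All libraries came from dorsal skin of C57BL/6J mice (MLKL+/+ in the study's terms), aged 8 weeks and housed singly after a full-thickness punch wound of 6 mm that was left to heal without treatment, with no transgene or drug. The tissue was described as the entire wound site, with scab and epithelial margins. The later days of the labels carry the same numbers as the study's later collection days. If the labels' day 0 is the study's day 1, the start was wound tissue taken on the day of wounding. Neither the labels nor the study states this, so each change below is given relative to the start as labelled. The design text speaks of 5 repeats per time point, whereas each time point has 4 libraries here. The labels do not say that libraries of a day are separate mice, and p-values then measure only the spread between libraries, which may be technical. Each gene had 1 estimate of this spread over all 28 libraries. The SEs and p-values against day 0 thus do not carry the wider spread of day 0, given below, in full.

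Total counts ran from 36706513 to 40492661 per library on day 0 and from 38686624 to 39516651 on day 10. Of 29068 genes, 18107 had enough counts for the test. The day 0 libraries differed more among themselves, with a biological coefficient of variation of 26.4% against 5.7% on day 10. They fell into 2 pairs, replicates 1 and 4 and replicates 2 and 3, and 620 genes (3.42% of those tested) were apart by over 1 log2 unit between the pairs while each pair stayed within 0.5. Clock genes differed between the pairs as well. Arntl, a core clock activator, had 473, 1791, 1810 and 248 counts in day 0 replicates 1 to 4, and Dbp, a clock output gene, had 4405, 738, 661 and 6141. No source used here gives the hour or site of sampling, so what set the pairs apart was not tested. Named genes that passed the test with all libraries but not with a pair left out, an alternative chosen after seeing the data, are given as such. All 8 libraries carried Y-linked transcripts, such as Ddx3y with 2535 to 3369 counts, and at most 4 counts of Xist, although the study used both sexes.

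Healing of a skin wound passes through inflammation, formation of granulation tissue and remodelling. In granulation tissue, fibroblasts lay down a provisional matrix rich in fibronectin, tenascins and collagen III, which is later replaced by collagen I bundles. Matricellular proteins such as periostin and tenascins sit in the matrix and steer cell adhesion and signalling without serving as its main scaffold, and enzymes in the endoplasmic reticulum and outside the cell hydroxylate, trim and crosslink the collagen chains. Keratinocytes at the wound edge meanwhile switch on keratins 6, 16 and 17 and cover the defect.

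On day 10, matrix genes, the proteases that remodel matrix, wound edge keratins, neutrophil genes and thermogenic fat genes were higher than at the start. Hair shaft genes, mature muscle genes, myelin genes and T and NK cell genes were lower, as were several genes of resident skin macrophages within a divided macrophage list. In the quasi-likelihood test of edgeR, with p-values adjusted by the Benjamini-Hochberg method, 4258 genes rose (adjusted p under 0.05, 23.5% of those tested) and 4871 fell (26.9%). With a log2 fold change over 1.5 as well, 764 genes were called higher (4.22%) and 909 lower (5.02%). All 4 libraries of day 10 lay above all 4 of day 0 for 19.5% of genes and below for 21.9%. The median log2 fold change over all genes tested was -0.0187. Below, "rose" and "fell" refer to the adjusted p alone, and "called" adds the limit on the fold change. Beside the genes that the naming rule selects, list members given by their fold change alone were chosen after their values were seen. In whole tissue, more cells of a type and more RNA per cell cannot be told apart.

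**Figure D1:**
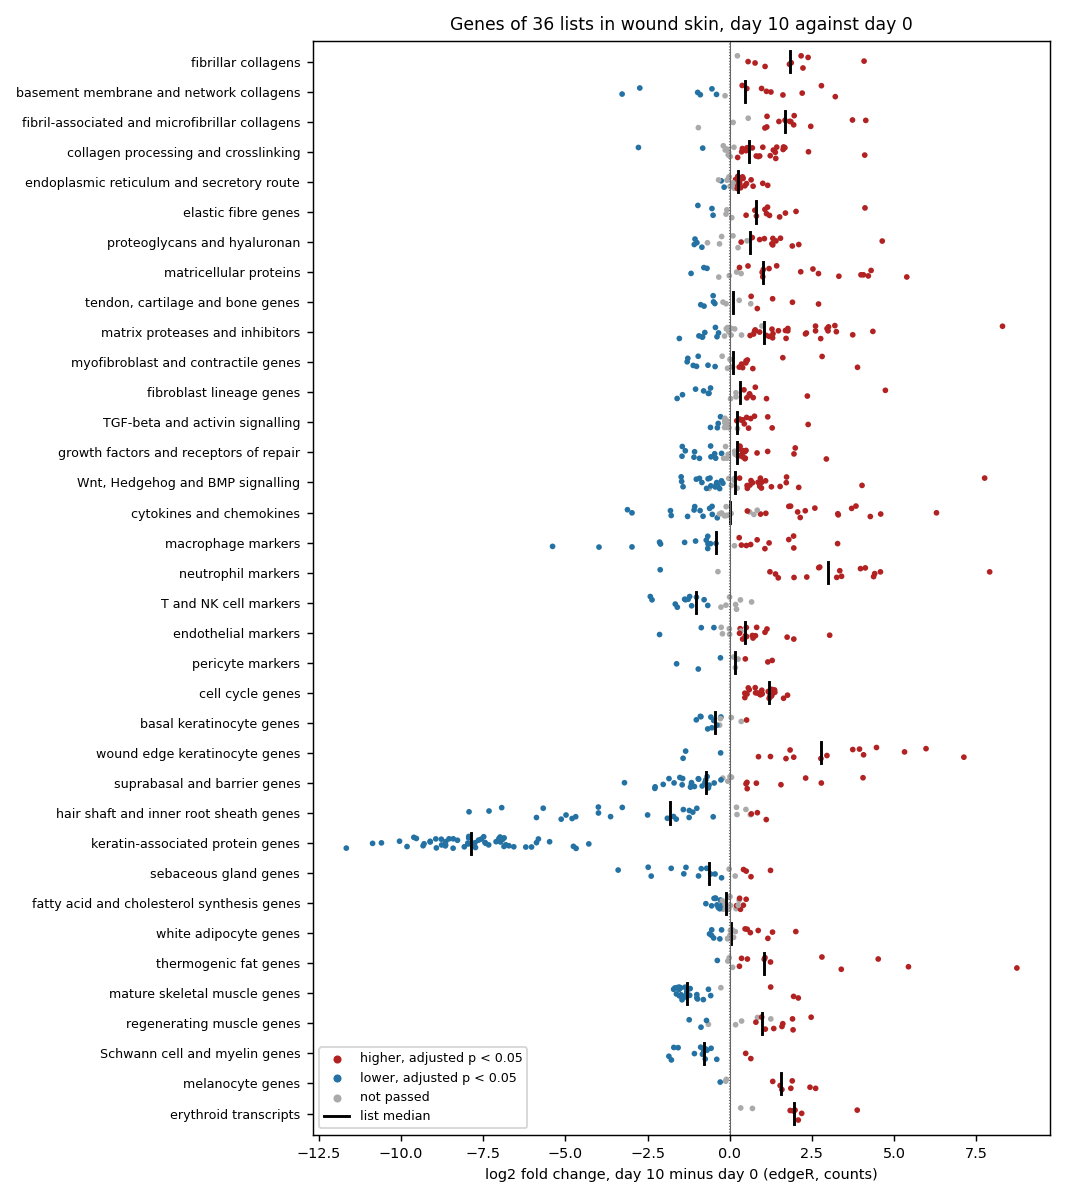
Each point is 1 gene of a list, at its log2 fold change of day 10 against day 0 (x axis), with lists as rows and the list median as a black bar. Red points passed an adjusted p of 0.05 as higher, blue points as lower, and grey points did not pass. Fibrillar collagens (median 1.85), wound edge keratinocyte genes (2.78) and neutrophil markers (3.00) lie to the right, and keratin-associated protein genes (-7.88) far to the left.

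The 10 largest increases by the naming rule were those of Ucp1, Prss35, Brinp3, Cxcl3, Sprr2d, Acod1, Slc27a2, Tnn, Krt6b and Mest. Prss35, a secreted serine protease homologue, had 66, 23, 25 and 51 counts on day 0 and 13247, 14283, 14470 and 13008 on day 10. Its FPKM (fragments scaled to gene length and library depth) went from 0.284 ± 0.147 to 92.8 ± 4.59 (SD, n = 4 libraries each), a log2 fold change of 8.30 (SE 0.18, adjusted p = 5.8e-23). Brinp3, a gene known mainly from neurons, had 1 to 8 counts on day 0 and 842 to 984 on day 10. Mest, an imprinted gene of growing mesenchyme, had 217 to 583 counts on day 0 and 11076 to 12292 on day 10, a log2 fold change of 5.05 (SE 0.20, adjusted p = 5.5e-17). Acod1 makes itaconate in activated macrophages, and its counts were 33, 6, 4 and 34 on day 0 and 1013 to 1529 on day 10. No library of day 10 overlapped those of day 0 for any of these genes, as the rule required.

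The 10 largest decreases were those of Krtap21-1, Krtap19-5, Krt86, Krt34, Tchhl1, Sprr4, Retnla, Gprc5d, C7 and Cd209e. Of these, 6 (Krtap21-1, Krtap19-5, Krt86, Krt34, Tchhl1 and Gprc5d) are known from the hair follicle. C7, a terminal complement component made by dermal fibroblasts, had 4676, 24397, 23019 and 2824 counts on day 0 and 466 to 534 on day 10 (log2 fold change -4.79, SE 0.42, adjusted p = 2.5e-10). Cd209e, a lectin of skin dendritic cells and macrophages, had 542 to 2189 counts on day 0 and 33 to 81 on day 10 (-4.50, SE 0.35). Sprr4, a cornified envelope gene, had 484, 2071, 2020 and 50 counts on day 0 and 25 to 34 on day 10. For all 3, day 0 replicates 2 and 3 were the high ones, and every day 10 library was below all of day 0.

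The letters before the transcription start are shown for 4 of these genes, 2 of matrix and turnover (Prss35 and Tnn), a chemokine (Cxcl3) and a hair keratin (Krt34), so that the promoters of genes that rose and of a gene that fell can be read side by side. The 150 bases before the start are from RefSeq (GRCm38.p6, the assembly of mm10), written 5′ to 3′ on the strand of the gene, in lower case. Capitals mark the TATA box motif TATAAA, the CCAAT box or the AP-1 motif TGANTCA, on either strand. They lie at chr9:86743483-86743632 (plus strand, Prss35), chr1:160153576-160153725 (minus, Tnn), chr5:90785951-90786100 (plus, Cxcl3) and chr11:100041555-100041704 (minus, Krt34).
Prss35: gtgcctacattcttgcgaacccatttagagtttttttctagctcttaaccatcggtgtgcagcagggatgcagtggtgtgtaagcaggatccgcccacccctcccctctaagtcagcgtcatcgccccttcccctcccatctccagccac
Tnn: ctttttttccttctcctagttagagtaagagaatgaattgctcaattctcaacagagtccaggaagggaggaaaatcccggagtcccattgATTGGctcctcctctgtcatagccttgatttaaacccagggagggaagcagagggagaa
Cxcl3: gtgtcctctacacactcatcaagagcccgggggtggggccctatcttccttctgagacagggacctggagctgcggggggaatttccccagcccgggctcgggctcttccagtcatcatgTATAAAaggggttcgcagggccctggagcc
Krt34: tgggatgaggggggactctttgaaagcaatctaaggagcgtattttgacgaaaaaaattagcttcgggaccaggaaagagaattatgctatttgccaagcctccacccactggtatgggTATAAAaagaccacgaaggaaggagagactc

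Cxcl3 and Krt34, which moved in opposite directions, each held a TATAAA, whose first letter was 30 and 31 bases before the start. Tnn held CCAAT on the other strand, 59 bases before the start, and Prss35 held none of the 3 motifs in this window. Over the 250 bases before the start, TATAAA on either strand was found in 16.5% of 557 called higher genes with a promoter in the table, in 28.1% of 705 called lower and in 10.0% of all 14101 tested genes with a promoter. CCAAT was found in 36.1%, 35.2% and 39.0%, and TGANTCA in 9.16%, 11.3% and 6.64%. Over all 32851 promoters of the table the shares were 12.4%, 33.8% and 6.75%. A match is a description of letters and does not show that a factor binds there.

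Fibrillar collagens, the rope-forming chains of the dermis, rose in 9 of 10 tested members, of which 6 were called, against 4.22% of all genes called higher, and the list median was 1.85. The called members were the minor chains. Col5a1, which starts collagen I fibrils, had an FPKM of 40.6, 63.6, 60.4 and 25.4 on day 0 and of 219, 214, 245 and 210 on day 10, with no overlap and a log2 fold change of 2.17 (SE 0.16, adjusted p = 1.0e-11). Col24a1, a chain known from bone, went from 24 to 70 counts to 821 to 843 (4.09, SE 0.20). Col11a1 went from 174 to 468 counts to 1368 to 1581 (2.39, SE 0.16). Col27a1, Col5a3 and Col5a2 were at 2.23, 1.87 and 1.82.

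The main chains of the dermis moved less. Col3a1, the collagen of early granulation tissue, had an FPKM of 1265, 2586, 2454 and 748 on day 0 and of 3870, 3794, 4041 and 3725 on day 10, so that it rose by 1.08 (SE 0.20, adjusted p = 6.4e-05) with no overlap. By mean FPKM it was the most abundant collagen and the sixth most abundant gene of the day 10 libraries. Col1a1, the main chain of dermal collagen, had an FPKM of 1240, 2742, 2686 and 677 on day 0 and of 2671, 2720, 3116 and 2719 on day 10. Day 0 replicates 2 and 3 thus lay among the day 10 libraries, while replicates 1 and 4 lay below all of them. Its log2 fold change of 0.56 (SE 0.23, adjusted p = 0.044) was 0.0016 without day 0 replicates 1 and 4 (adjusted p = 0.99) and 1.49 without replicates 2 and 3 (adjusted p = 5.7e-10). With libraries left out in turn it ran from 0.29 to 0.82, and it no longer passed without day 0 replicate 1 (0.42) or 4 (0.29) or without any of the day 10 replicates 1 to 4 (0.59, 0.58, 0.50 and 0.58). Col1a2 was at 0.23 (SE 0.24, adjusted p = 0.44), and at -0.36 without day 0 replicates 1 and 4. All 44 collagen genes of the table together took 2.61, 5.27, 5.09 and 1.61% of the counts on day 0 and 6.48, 6.44, 7.11 and 6.39% on day 10.

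**Figure D2:**
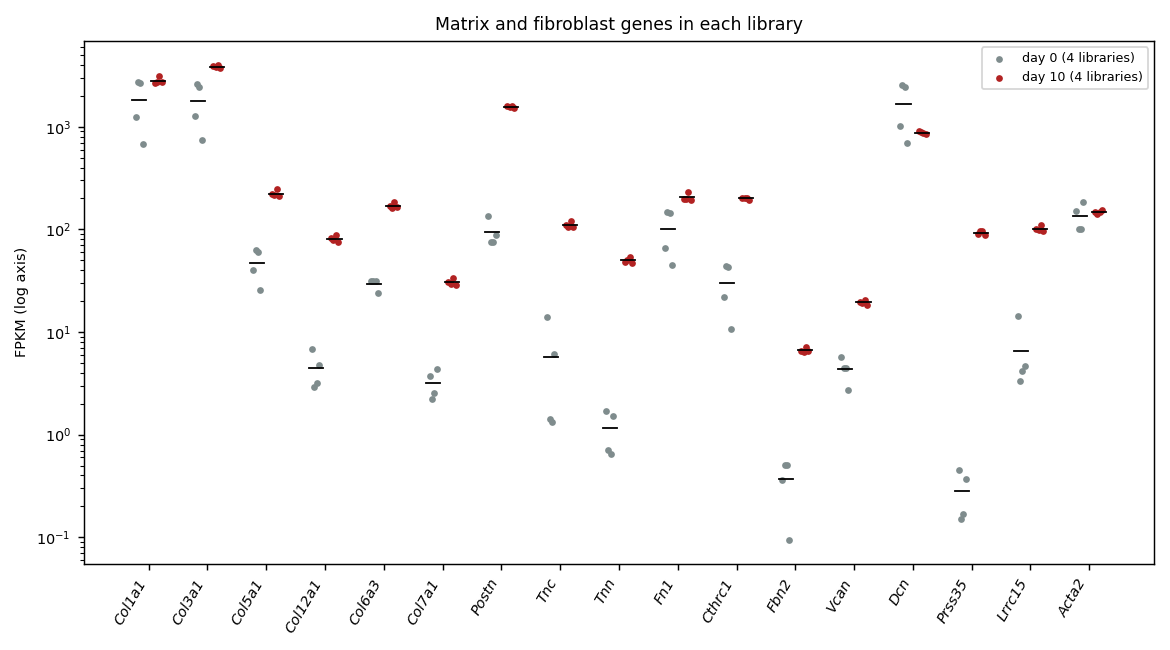
FPKM on a log axis of 17 matrix and fibroblast genes (x axis) in each of the 4 day 0 libraries (grey) and 4 day 10 libraries (red), with black bars for the means. For Postn, Tnc, Tnn, Col12a1 and Prss35 every day 10 library lies above every day 0 library, whereas Col1a1, Dcn and Acta2 overlap.

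Fibril-associated and microfibrillar collagens rose in 12 of 15 tested members (8 called), with a median of 1.68. Col12a1, which coats collagen I fibrils in tissue under load, had an FPKM of 6.84, 2.93, 3.15 and 4.79 on day 0 and of 82.5, 78.5, 88.7 and 75.2 on day 10 (log2 fold change 4.14, SE 0.20, adjusted p = 1.7e-15). In mm10 the gene lies on the minus strand of chromosome 9, from 79598991 to 79718831. The collagen VI chains, which form beaded filaments around cells, moved together, with Col6a3 at 2.47, Col6a2 at 1.95, Col6a5 at 1.86, Col6a1 at 1.82 and Col6a6 at 1.13. Col14a1, the other fibril coat of the dermis, rose by 1.14 (SE 0.19). Not passing were Col9a3 (0.56), Col20a1 (0.10) and Col22a1 (-0.95). Without day 0 replicates 2 and 3, Col9a3 (0.87) and Col22a1 (-1.36) passed.

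Basement membrane and network collagens were divided, with 9 of 16 higher and 6 lower (median 0.45). Col7a1 builds the anchoring fibrils that tie epidermis to dermis, and went from 836 to 1471 counts on day 0 to 10574 to 12413 on day 10 (log2 fold change 3.21, SE 0.14, adjusted p = 3.1e-16). Col4a1 and Col4a2, the chains of every basement membrane, rose by 0.97 (SE 0.07) and 1.12. Col4a3 and Col4a4, chains of specialised basement membranes, fell by 3.27 and 2.74, and the hemidesmosome collagen Col17a1 by 0.89. Col4a3 had 238, 829, 861 and 150 counts on day 0 and 47 to 63 on day 10, with no overlap.

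Among matricellular proteins, 16 of 23 rose, 3 fell and 9 were called higher (median 1.02). Postn (periostin, which binds collagen and integrins) had an FPKM of 136, 76.0, 75.7 and 88.6 on day 0 and of 1604, 1546, 1579 and 1509 on day 10. Its log2 fold change was 4.00 (SE 0.13, adjusted p = 8.5e-19). Tnc (tenascin-C, a scaffold of provisional matrix) had 14.0, 1.42, 1.33 and 6.08 on day 0 and 110, 105, 121 and 105 on day 10. Replicates 1 and 4 were the higher ones on day 0, and its log2 fold change of 4.22 (SE 0.44) was 5.19 without day 0 replicate 1. Tnn (tenascin-W) had 1.70, 0.715, 0.646 and 1.53 on day 0 and 48.4, 50.3, 54.0 and 46.8 on day 10 (5.39, SE 0.22, adjusted p = 8.2e-17). Among these 5 genes, the day 10 order by FPKM was Postn, then Fn1 (206 ± 18.5, SD, n = 4) and Cthrc1 (201 ± 4.14), which did not differ beyond their spread, then Tnc and Tnn.

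Cthrc1, a secreted protein of activated fibroblasts, rose by 2.70 (SE 0.23) on the log2 scale, with an FPKM between 10.7 and 44.1 on day 0, and Fn1 (fibronectin) by 0.99 (SE 0.23), with one between 45.1 and 147. Spp1 (osteopontin), Ccn4 and Ccn3 were called at 4.07, 3.32 and 2.53, and the thrombospondin Thbs2 at 2.16. The 3 members that fell were Comp (-1.18, and -0.38 without day 0 replicates 2 and 3, when it did not pass), Tgfbi (-0.79) and Tnxb (-0.69), of which Comp and Tnxb belong to the settled matrix of tendon and dermis. Ccn2, a target of TGF-β, was at -0.33 and did not pass, and was at 0.75 without day 0 replicates 1 and 4.

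Proteoglycans rose in 12 of 22 members and fell in 4 (median 0.61). Vcan (versican, which holds water in provisional matrix) had an FPKM of 5.67, 4.50, 4.46 and 2.75 on day 0 and of 19.6, 19.3, 20.3 and 18.4 on day 10 (log2 fold change 2.10, SE 0.15). Acan (aggrecan, known from cartilage) had 45, 1, 3 and 16 counts on day 0 and 394 to 483 on day 10, a log2 fold change of 4.64 (SE 0.39) that was 5.92 without day 0 replicate 1. Bgn (biglycan) rose by 1.41 and Aspn (asporin) by 1.28. The small proteoglycans that space fibrils in resting dermis went the other way, with Dcn (decorin) at -0.999, Fmod at -1.06 and Podn at -1.08. Dcn had an FPKM of 1023, 2556, 2458 and 698 on day 0 and of 852 to 901 on day 10, and it did not pass without day 0 replicates 2 and 3 (-0.036, adjusted p = 0.79).

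Elastic fibre genes rose in 11 of 17 members (4 called) and fell in 3, with a median of 0.81. Fbn2, the fibrillin of developing tissue, had 151, 220, 211 and 37 counts on day 0 and 2669 to 3049 on day 10 (log2 fold change 4.12, SE 0.24), against 0.77 for Fbn1, the fibrillin of adult tissue. Fbn1 did not pass without day 0 replicates 1 and 4 (0.26). Eln (elastin) rose by 1.15 (SE 0.13), and Mfap4 by 1.52. The latent TGF-β binding proteins Ltbp1 and Ltbp4 fell by 0.51 and 0.54.

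The machinery that makes collagen rose in part. Of 31 tested genes of collagen processing and crosslinking, 21 rose and 2 fell (median 0.58). P4ha3, a collagen prolyl hydroxylase subunit, had 129, 17, 9 and 62 counts on day 0 and 929 to 1047 on day 10, a log2 fold change of 4.11 (SE 0.34) that was 5.00 without day 0 replicate 1. Plod2, the lysyl hydroxylase that favours stable crosslinks, had 177 to 264 counts on day 0 and 1194 to 1335 on day 10 (2.40, SE 0.10, adjusted p = 1.8e-16). Lox, the crosslinking oxidase, rose by 1.01 (SE 0.17), Loxl2 by 1.64 and the collagen chaperone Serpinh1 by 0.87. Pcolce2, which enhances procollagen trimming, fell by 2.78 (SE 0.21), while its relative Pcolce was at -0.09 (adjusted p = 0.66) and changed sign with the day 0 pairs. Of 30 genes of the endoplasmic reticulum and secretory route, 19 rose and 2 fell, none was called, and the median was 0.25. The number that rose was 12 without day 0 replicates 1 and 4. Kdelr3, a retrieval receptor, was at 1.01 (SE 0.13).

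Matrix proteases and their inhibitors rose in 28 of 46 members (17 called) and fell in 8 (median 1.04). Beside Prss35, the collagenase gene Mmp13 had 234, 35, 35 and 183 counts on day 0 and 1017 to 1317 on day 10 (log2 fold change 3.20, SE 0.32). Mmp12 and Mmp11 were called at 3.75 (4.59 without day 0 replicate 1) and 2.77, and 6 ADAMTS genes were called (Adamts16, Adamts4, Adamts18, Adamts7, Adamts15 and Adamts9, from 3.25 down to 1.77). Adamts16 was at 3.97 without day 0 replicate 2, and Adamts18, at 2.96, was at 3.58 without replicate 1. Mmp14, the membrane-bound collagenase, had a mean FPKM of 148 ± 26.1 on day 0 and 331 ± 8.60 (SD, n = 4) on day 10 (1.11, SE 0.08). Mmp2 was at 0.36 (adjusted p = 0.062) and Mmp9 at -0.16, neither of them passing. Without day 0 replicates 2 and 3 both passed, at 0.97 and 0.90. Among the inhibitors, Timp1 rose by 2.31 (SE 0.25), to 2.91 without day 0 replicate 1, whereas Timp3 fell by 0.84. Timp2 (-0.76) and Timp4 (-0.94) fell with all libraries, but Timp2 did not pass without day 0 replicates 2 and 3 (-0.062), nor Timp4 without replicates 1 and 4 (-0.056). The member called lower was Mmp27 (-1.53, SE 0.25), whose libraries overlapped.

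With all libraries, contractile genes were divided between higher and lower than at the start. Acta2 (α-smooth muscle actin, the marker of myofibroblasts) had an FPKM of 152, 99.8, 101 and 185 on day 0 and of 148, 143, 149 and 154 on day 10. The days overlapped, and the log2 fold change was 0.09 (SE 0.12, adjusted p = 0.57). Its sign followed the day 0 pairs, with 0.52 (adjusted p = 6.0e-08) without replicates 1 and 4 and -0.24 (adjusted p = 0.0067) without replicates 2 and 3. The same held for Tagln, at 0.01 with all libraries, 0.51 and -0.36. Of the 21 tested myofibroblast and contractile genes 10 rose and 7 fell (median 0.09). Without day 0 replicates 1 and 4, 13 rose and 6 fell (median 0.43), and without replicates 2 and 3, 8 rose and 11 fell (median -0.24). Those called were Lrrc15, a surface protein of matrix-producing myofibroblasts (FPKM 14.2, 3.36, 4.15 and 4.66 on day 0 and 96.5 to 110 on day 10, log2 fold change 3.89, SE 0.27, and 4.60 without day 0 replicate 1), the cadherin Cdh11 (2.81) and the collagen-binding integrin chain Itga11 (1.62). Those that fell, among them Tpm2 (-1.29), Lmod1 (-1.27), Synpo2 (-1.11), Tpm1 (-1.01) and Myh11 (-0.96), are genes of smooth or striated muscle.

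Fibroblast lineage genes were divided, 10 of 20 higher and 7 lower, with 8 and 7 without day 0 replicates 1 and 4 and 12 and 5 without replicates 2 and 3. Dlk1, a marker of fetal and neonatal dermis, had 145, 45, 36 and 28 counts on day 0 and 1722 to 1897 on day 10 (log2 fold change 4.74, SE 0.27, and 5.55 without day 0 replicate 1). Crabp1, a gene of dermal papilla and regenerating dermis, was called at 2.36. Pdgfra rose by 0.59 (SE 0.13). The markers of adventitial and reticular reserve fibroblasts fell, with Pi16 at -1.60 (SE 0.22), Clec3b at -1.44 and Dpp4 at -1.04. Dpp4 did not pass without day 0 replicates 2 and 3 (-0.11). In the tendon, cartilage and bone list 5 of 14 rose and 5 fell, with the osteoblast factors Sp7 and Runx2 at 2.70 (SE 0.41, 3.40 without day 0 replicate 2) and 1.31 (SE 0.11), and the tendon factor Scx at -0.49 (adjusted p = 0.040), which did not pass without day 0 replicate 1 (-0.40) or 4 (-0.33), without both (-0.071), or without day 10 replicate 1 (-0.41) or 2 (-0.43).

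Of 25 TGF-β and activin genes, 12 rose and 4 fell, with 1 called. This was Inhba, the activin A subunit, with 151 to 193 counts on day 0 and 879 to 1025 on day 10 (log2 fold change 2.39, SE 0.09, adjusted p = 3.8e-17). The ligands Tgfb3 and Tgfb1 rose by 0.75 (SE 0.08) and 0.57 (SE 0.09). Of 35 growth factor genes 15 rose and 11 fell (3 called, all higher). Nrg1, a ligand of ERBB receptors, was at 2.94 (SE 0.27, 3.56 without day 0 replicate 1), and the imprinted neighbours Igf2 and H19 were at 2.00 and 1.96. Igf1 rose by 0.83 and Vegfa by 0.39 (SE 0.10, and 0.20 without day 0 replicates 1 and 4, when it did not pass), while Fgf7, which fibroblasts make for keratinocytes, fell by 0.57.

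Wnt, Hedgehog and BMP genes showed 20 higher and 17 lower of 43. The Hedgehog ligand Shh had 42, 9, 5 and 16 counts on day 0 and 268 to 357 on day 10 (log2 fold change 4.03, SE 0.29, 4.87 without day 0 replicate 1). The Hedgehog targets Gli1, Hhip and Ptch1 rose by 1.73, 1.72 and 0.62. Dkk1, a secreted Wnt inhibitor, had no count in any day 0 library and 21, 32, 23 and 33 counts on day 10, which is at least 8.63-fold higher (against 3 counts per library). Wnt5a rose by 0.97 (SE 0.09), whereas the Wnt target Axin2 fell by 0.40 (SE 0.06) and Bmp4 and the BMP inhibitor Nog by 0.85 and 0.92. Nog did not pass without day 0 replicates 1 and 4 (-0.66).

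Of 18 tested neutrophil genes, 16 rose (13 called) and 1 fell, and the median was 3.00, or 2.72 with genes without counts on day 0 at their bound. S100a8, a calcium-binding protein of neutrophils that wound keratinocytes make as well, had an FPKM of 20.0, 4.91, 3.51 and 23.6 on day 0 and of 204 to 230 on day 10 (log2 fold change 3.98, SE 0.34, adjusted p = 1.7e-10). Csf3r, the receptor for G-CSF, rose by 1.22 (SE 0.16). Ngp, a granule protein, had no count on day 0 and 27, 23, 36 and 35 on day 10, at least 9.61-fold higher. Ly6g, the marker of mouse neutrophils, had no count on day 0 and 0, 2, 4 and 4 on day 10, near the limit of detection. The list's exception was Il1r2, a decoy receptor of IL-1 (-2.12, SE 0.20).

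Of 40 cytokine and chemokine genes 16 rose (13 called) and 13 fell (4 called). The ligands of the neutrophil receptor CXCR2 led. Cxcl3 had 15, 0, 2 and 16 counts on day 0 and 718, 615, 818 and 606 on day 10 (log2 fold change 6.29, SE 0.31). Cxcl5, Cxcl2 and Cxcl1 were called at 4.60 (6.35 without day 0 replicate 1), 4.28 (5.56 without day 0 replicate 4) and 1.85. Il1b rose by 2.30 (SE 0.18) from 293 to 669 counts to 2094 to 2759. Ccl24, Cxcl13, Cxcl14 and Ccl8, which draw eosinophils, B cells and monocytes and are made in resting skin, were called lower at -3.11, -2.97, -1.80 and -1.78. Ccl2 was at -0.31 and changed sign with the day 0 pairs (0.57 without replicates 1 and 4).

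Macrophage genes were divided, with 11 of 25 higher and 13 lower. Arg1, a gene of alternatively activated macrophages, rose by 1.07 (SE 0.17, adjusted p = 4.8e-06), with no overlap. Several other genes of resident or alternatively activated skin macrophages fell. Retnla had 6592, 19986, 19543 and 8257 counts on day 0 and 306 to 354 on day 10 (log2 fold change -5.39, SE 0.26, adjusted p = 1.6e-15), and Timd4, Cd163, Lyve1 and Folr2 were at -3.98, -2.97, -2.13 and -2.11. The general marker Adgre1 (F4/80) fell by 0.66 (SE 0.09), while the lysosomal Cd68 rose by 0.64 (SE 0.11). Genes of recruited or lipid-laden macrophages rose, such as Clec4d (3.28, SE 0.40), Trem2 (1.95, SE 0.38) and Gpnmb (1.80). Trem2 had 917, 88, 98 and 728 counts on day 0 and 1760 to 2029 on day 10, above all of day 0.

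T and NK cell genes fell in 12 of 19 and rose in none by the adjusted p. Cd3e, part of the T cell receptor complex, had 240, 238, 250 and 175 counts on day 0 and 74, 93, 51 and 95 on day 10 (log2 fold change -1.59, SE 0.19). Prf1 (perforin) went from 167 to 239 counts to 34 to 59 (-2.42, SE 0.21) and Nkg7 from 197 to 227 to 63 to 113 (-1.35, SE 0.17). Cd4 and Cd8a, at -0.11 and 0.18, did not pass, and Cd4 was at -0.41 without day 0 replicates 1 and 4, when it passed.

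Endothelial genes rose in 15 of 23 and fell in 3 (median 0.47). Esm1, a marker of sprouting tip cells, had 23, 19, 11 and 19 counts on day 0 and 177, 160, 146 and 144 on day 10 (log2 fold change 3.04, SE 0.24). The tip cell ligand Apln and its receptor Aplnr were called at 1.75 and 1.95. The general marker Pecam1 rose by 0.32 (SE 0.06). Prox1, Flt4 and Lyve1, which mark lymphatic vessels (Lyve1 also macrophages), fell by 0.87, 0.48 and 2.13. Flt4 did not pass without day 0 replicates 2 and 3 (-0.15). Of 9 pericyte genes 3 rose and 3 fell, with Rgs5 at 1.16 (SE 0.06) and Ndufa4l2 at -1.62 (SE 0.18). Erythroid transcripts rose in 6 of 8, all 6 called, with Hbb-bs at 1.84 (SE 0.12). The nearly identical globin genes may share reads.

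All 28 cell cycle genes tested rose, 2 were called, and the median was 1.19. Mki67 had an FPKM of 10.3, 5.16, 5.07 and 9.02 on day 0 and of 18.3, 17.8, 17.6 and 17.9 on day 10 (log2 fold change 1.22, SE 0.18). Top2a (1.27, SE 0.16), Bub1 (1.76, SE 0.19) and the replication helicase subunit Mcm5 (0.85, SE 0.16) showed the same order of libraries, with day 0 replicates 1 and 4 above replicates 2 and 3 and all 4 below day 10. The number called was 16 without day 0 replicates 1 and 4 and 0 without replicates 2 and 3, when 28 and 27 rose.

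In the epidermis, wound edge genes rose in 14 of 17 (12 called) and fell in 3, with a median of 2.78. Krt6b, a keratin of activated keratinocytes, had an FPKM of 10.6, 0.254, 0.398 and 3.34 on day 0 and of 173, 152, 133 and 148 on day 10. Its log2 fold change of 5.32 (SE 0.56) was 6.81 without day 0 replicate 1. Krt16 had 35.7, 6.50, 7.06 and 13.7 on day 0 and 234 to 275 on day 10 (3.95, SE 0.33, 4.76 without day 0 replicate 1), and Krt6a rose by 1.84 (2.51 without it). Krt17, grouped with these keratins but present in hair follicles too, fell by 0.28 (SE 0.09), a difference that did not pass without day 10 replicate 2 (-0.24) or without day 0 replicates 2 and 3 (-0.20). Sprr2d, a cornified envelope precursor, had 13 to 24 counts on day 0 and 1041 to 1470 on day 10 (5.98, SE 0.26), and its near-identical relatives may share reads. Sprr2b had 0, 0, 0 and 1 counts on day 0 and 66, 52, 38 and 61 on day 10.

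Basal keratinocyte genes fell in 9 of 14 and rose in 1 (median -0.44). Krt15, a basal and bulge keratin, fell by 1.02 (SE 0.10). Krt14 and Krt5, the keratin pair of the basal layer, were at 0.35 (adjusted p = 0.13) and -0.31 (adjusted p = 0.12). Krt14 had an FPKM of 1129, 497, 490 and 1221 on day 0 and of 1017 to 1205 on day 10, and it passed, at 1.12, without day 0 replicates 1 and 4. Day 0 replicates 2 and 3 had the low values for both keratins, and Krt5 was at 0.32 without replicates 1 and 4 and at -0.74 without replicates 2 and 3, past the test either way. The list's counts moved to 4 higher and 5 lower, and to 0 and 12.

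Suprabasal and barrier genes fell in 23 of 35 and rose in 8 (median -0.73). Krt77, a keratin of the interfollicular epidermis, had an FPKM of 444, 503, 571 and 475 on day 0 and of 57.9, 57.7, 46.8 and 62.4 on day 10 (log2 fold change -3.20, SE 0.11, adjusted p = 2.0e-18). Krt10, the main suprabasal keratin, fell by 1.43 (SE 0.10) while its partner Krt1 rose by 0.53 (SE 0.12). Flg2, a filaggrin relative, was called lower at -2.27, and Lor (loricrin) fell by 0.75 (SE 0.13). Flg (filaggrin) went up from an FPKM of 1.44 to 3.41 to one of 13.6 to 17.7 (2.79, SE 0.23), and Lce3c, a late envelope gene of wounded skin, rose by 4.06 (SE 0.32, 4.67 without day 0 replicate 1).

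The largest decreases were in hair. All 54 tested keratin-associated protein genes, which encode the matrix between the keratin filaments of the hair shaft, were called lower, against 5.02% of all genes, with a median of -7.88, or -7.44 with the 8 genes without counts on day 10 at their bound. Krtap21-1 had 1195, 215, 156 and 4 counts on day 0 and none in any library of day 10, at least 137-fold lower, and at least 42.5-fold lower without day 0 replicate 1. Krtap19-5 had 2184, 307, 274 and 10 counts on day 0 and 1, 2, 1 and 0 on day 10. The list's share of all counts was 0.172, 0.0431, 0.0344 and 0.00772% on day 0, so that the start itself varied widely, and at most 0.000477% on day 10. The genes are near-identical within families, and reads may have been split among them.

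Of 30 hair shaft and inner root sheath genes, 23 fell (17 called) and 3 rose. The shaft keratins Krt86 and Krt34 went from 131 to 3079 and from 176 to 2973 counts to 4 to 6 and 5 to 11 (log2 fold changes -7.93 and -7.33, or -6.85 and -6.18 without day 0 replicate 1). Tchh (trichohyalin, of the inner root sheath) had 26946, 10831, 9983 and 1600 counts on day 0 and 711 to 890 on day 10. The inner root sheath keratins moved less, with Krt71 at -1.71 and Krt25 at -1.23, both overlapping between the days, and at -0.86 and -0.31 without day 0 replicate 1, when Krt25 no longer passed. The 3 that rose were Msx2 (1.11, and 1.78 without day 0 replicate 1), Dlx3 (0.84) and Hoxc13 (0.66), transcription factors of the hair matrix. Without day 0 replicates 2 and 3, Dlx3 (0.48) and Hoxc13 (0.22) did not pass and 1 member of the list rose. Without replicates 1 and 4, 7 members rose and 22 fell. The early shaft keratins Krt35 and Krt85 were at 0.63 and 0.21, not passing, and at 1.55 and 1.13 without day 0 replicate 1, when both passed.

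**Figure D3:**
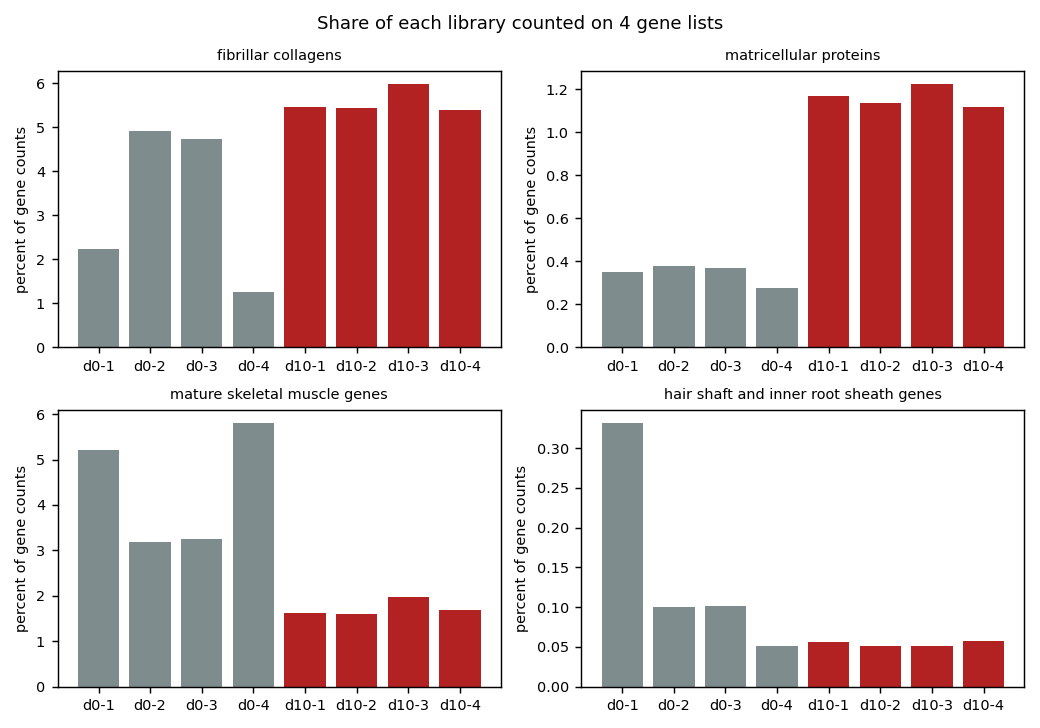
Percent of all gene counts (y axis) taken by 4 gene lists in each of the 4 day 0 libraries (d0, grey) and 4 day 10 libraries (d10, red). Matricellular genes rose from at most 0.377% to at least 1.12%, mature muscle genes fell from at least 3.19% to at most 1.99%, and the day 0 bars of fibrillar collagens and of hair genes vary most.

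Sebaceous gland genes fell in 12 of 18 and rose in 4 (median -0.64). Scd3, a desaturase of sebocytes, had an FPKM of 77.8, 105, 97.0 and 76.8 on day 0 and of 15.7, 17.7, 15.6 and 17.2 on day 10 (log2 fold change -2.48, SE 0.15), and the wax synthase Awat2 fell by 1.40 (SE 0.12). Melanocyte genes rose in 7 of 10, with Pmel at 1.86 (SE 0.28, 2.59 without day 0 replicate 1) and Dct at 1.59 (SE 0.15). The number called, 6, was 2 without day 0 replicates 2 and 3. For this list day 0 replicate 1 was the highest of its group.

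White fat genes were divided, with 7 of 20 genes higher and 6 lower (median 0.05, or -0.04 without day 0 replicates 1 and 4). Adipoq (adiponectin) had an FPKM of 392, 481, 461 and 498 on day 0 and of 469, 485, 475 and 500 on day 10 (log2 fold change 0.02, SE 0.06). Lep (leptin) fell by 0.55 (SE 0.12), and the called member was Pck1, which makes glycerol for triglycerides (2.01, SE 0.11). Thermogenic fat genes rose in 11 of 15 (5 called) and fell in 1. Ucp1, the uncoupling protein of brown and beige fat, had 6, 15, 49 and 37 counts on day 0 and 11759, 12021, 12774 and 11737 on day 10 (8.74, SE 0.28, adjusted p = 3.6e-19). Slc27a2, a fatty acid transporter, went from 13 to 26 counts to 880 to 1009 (5.44, SE 0.14), and Otop1, Kcnk3 and Dio2 were called at 4.52, 3.40 and 2.81. The lineage gene Zic1 rose by 0.36 and did not pass without day 0 replicates 1 and 4 (0.16), and the member that fell was Ppargc1a (-0.38, adjusted p = 0.045), which did not pass without either pair of day 0, without day 0 replicate 2 or 4 or without day 10 replicate 2, 3 or 4 (-0.22 to -0.49 with libraries left out in turn). The fat depot below each wound is not described in the sources used here, and its part in these values was not tested. Of 26 fatty acid and cholesterol synthesis genes 5 rose, 10 fell and none was called, while without day 0 replicates 2 and 3, 10 rose and 9 fell.

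Mature skeletal muscle genes fell in 23 of 27 and rose in 3 (median -1.31). Together they took 5.22, 3.19, 3.26 and 5.80% of the counts on day 0 and 1.625, 1.609, 1.986 and 1.696% on day 10. Acta1 (skeletal actin) had an FPKM of 5077, 3271, 3353 and 5182 on day 0 and of 1632, 1664, 2031 and 1758 on day 10 (log2 fold change -1.31, SE 0.13), and Ckm and Myh4 were at -1.67 and -1.62. The 3 that rose were Tnni1 (2.09, SE 0.26), Tnnc1 (1.95) and Tnnt1 (1.25), the slow isoforms of troponin. The number called lower, 8, was 0 without day 0 replicates 1 and 4 and 18 without replicates 2 and 3.

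Regenerating muscle genes rose in 9 of 17 and fell in 3, but this depended on the start. Myh8, the perinatal myosin, had 648, 180, 143 and 544 counts on day 0 and 2133 to 2450 on day 10 (log2 fold change 2.48, SE 0.28). Myh3, the embryonic myosin, had 898, 10, 17 and 309 counts on day 0 and 943 to 1041 on day 10, so that its change of 1.59 was 6.16 without day 0 replicates 1 and 4, 0.62 without replicates 2 and 3 and 3.03 without replicate 1. Myog (myogenin) had 1056, 47, 20 and 525 counts on day 0 and 419 to 547 on day 10, and was at 3.86 or -0.77 with the pairs left out. Without day 0 replicates 1 and 4, 13 members rose and none fell. Without replicates 2 and 3, 6 rose and 5 fell.

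Schwann cell and myelin genes fell in 13 of 15 and rose in 2 (median -0.79). Drp2, of the Schwann cell membrane around myelin, had 1211, 1423, 1309 and 1528 counts on day 0 and 384 to 416 on day 10 (log2 fold change -1.85, SE 0.11), with no overlap. Gap43, a growth-associated protein, and S100b rose by 0.64 and 0.49. Of 15 immediate-early genes, 10 fell and 2 rose. Fosb was at -1.63 (-0.85 without day 0 replicate 4) and Egr1 at -0.29 (SE 0.07). Of 17 clock genes 6 fell and none rose. Without day 0 replicates 1 and 4, 10 rose and 6 fell, and without replicates 2 and 3, 12 fell and none rose. Arntl, called lower at -1.63, did not pass in the latter case (-0.11).

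Day 10 was set beside its neighbours to place these changes in time. The comparisons share the day 10 libraries, so their values are given side by side only. Against day 7, 2584 genes rose (14.3%) and 3262 fell (18%), with 224 (1.24%) and 540 (2.98%) called. Against day 12, 3744 were higher on day 10 (20.7%) and 3383 lower (18.7%), with 428 (2.36%) and 601 (3.32%) called. None of the 10 fibrillar collagens passed against day 7 (median 0.03), and 6 were higher and 1 lower than on day 12 (median 0.76). Postn was higher on day 10 than on day 7 by 0.58 and than on day 12 by 1.18, and Prss35 by 1.02 and 2.30. Col7a1 was higher by 0.99 and 2.26. Tnc and Tnn, at 0.33 and 0.09, did not pass against day 7, and were higher than on day 12 by 2.28 and 4.10. Of the proteases and inhibitors 11 were higher and 9 lower than on day 7, against 27 and 3 for day 12. For the 21 myofibroblast and contractile genes the numbers were 7 and 3 against day 7, and 14 and 0 against day 12.

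Neutrophil genes were lower than on day 7 in 10 of 18 and higher than on day 12 in 15 of 18, and macrophage genes were lower than on day 7 in 21 of 25. Wound edge genes were lower than on day 7 in 9 of 17 and higher than on day 12 in 12 of 17. Cell cycle genes were higher than on day 7 in 7 of 28, against 14.3% of all genes. They were lower than on day 12 in 4 of 28 (median -0.11), no more than the 18.7% of all genes. Hair genes were lowest on day 10 of these 3 days: 52 and all 54 of the keratin-associated protein genes were lower than on day 7 and than on day 12, with medians of -8.32 and -10.1. Thermogenic genes were higher than on day 12 in 13 of 15, with Ucp1 at 5.34, and lower than on day 7 in 6. Mature muscle genes were higher than on day 7 in 26 of 27 and than on day 12 in 24, and all 10 melanocyte genes were lower than on day 12.

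**Figure D4:**
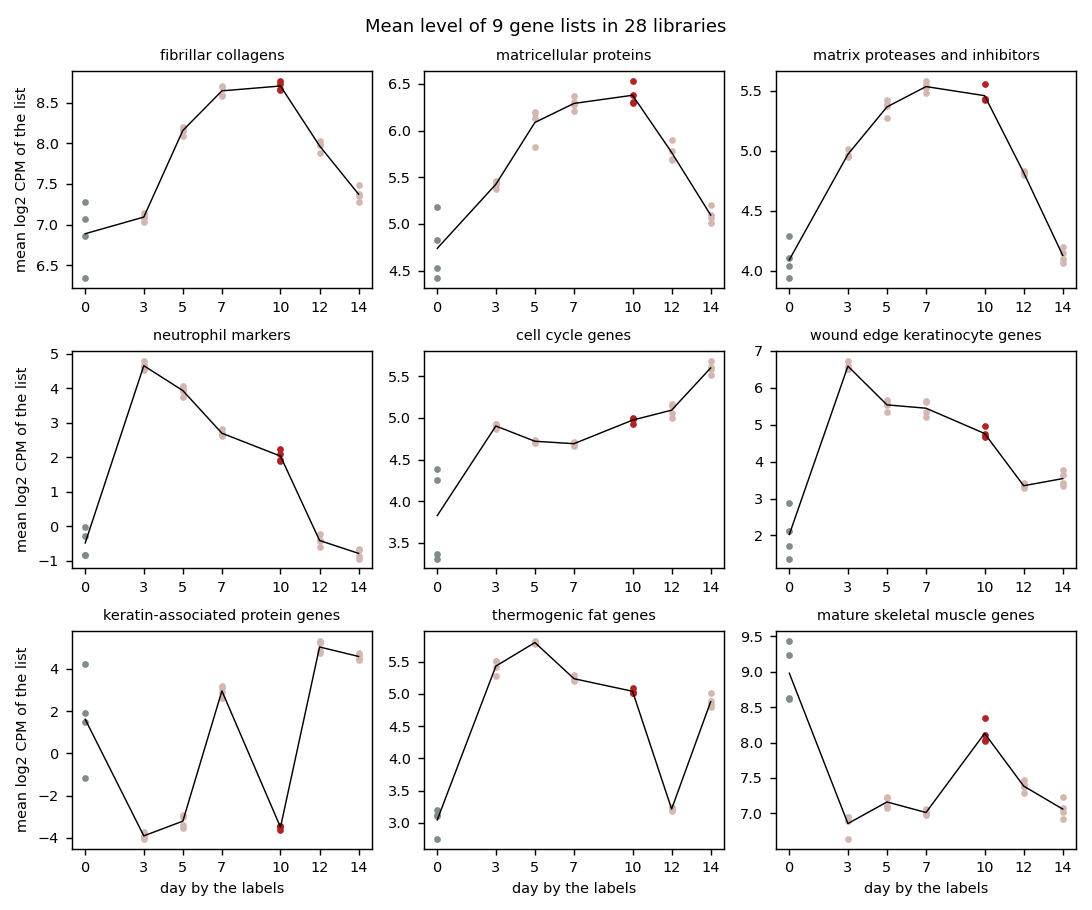
Mean log2 CPM (y axis) of 9 gene lists by day (x axis, days as in the labels), with 1 point per library and 4 libraries a day, day 0 in grey, day 10 in red and a line through the day means. Fibrillar collagens, matricellular genes and proteases stand near their top on days 7 and 10 and lower by day 14, neutrophil and wound edge genes decline from day 3 to day 12, and keratin-associated protein genes are low on days 3, 5 and 10 and high on days 7, 12 and 14.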

How the data were processed

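RNA was extracted with TRIzol from whole wound sites and sequenced. The authors deposited a table of raw read counts per gene and a table of FPKM values per gene for 28 libraries. The submitters' processing notes name fastp, R 3.2.0 and mm10, while the aligner, counter, annotation and strand setting are not given in the sources used here. Without a strand setting, overlapping genes cannot be told apart.

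From the counts, edgeR 4.0.16 (R 4.3.3) was run on all 28 libraries with TMM scaling, its expression filter, 7 day groups and no covariates, which left 21 residual degrees of freedom. Genes with an adjusted p under 0.05 passed, and those with an absolute log2 fold change over 1.5 as well were called. The deposited FPKM gave levels only. Alternatives used DESeq2 1.42.0 and limma 3.58.1. The naming rule took the 10 largest called increases and decreases whose libraries did not overlap and whose mean CPM reached 10 on the higher day, the anchor genes of each list and the called member of each list with the largest change either way. The 39 gene lists and their members were chosen with earlier results of these data known. A gene without counts in a group got a bound against 3 counts per library. Scripts were tested on simulated data with the same spread on every day, so this test did not cover the wider spread of day 0. Total counts limit the precision by counting error only, and no pairing of libraries by the labelled replicate numbers was seen. Promoters came from RefSeq and positions from GENCODE on GRCm38, the assembly of mm10. A few list members that enter the counts are not reported here by name.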

Additional observations from a re-analysis of the deposited data

Results flagged for a closer look

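Of 350 groups of 4 libraries examined, 20 had 1 library whose gap to the nearest of the others, as a ratio to the range of the group, was above Dixon's 95% critical value. Chance gives about 1 in 20 such groups. On day 10, replicate 3 stood apart most often. It was highest for the mean of the collagen processing and crosslinking list (ratio 0.881), for that of matrix proteases and inhibitors (0.97) and for the FPKM of Bgn (0.871), Col1a1 (0.882) and Fn1 (0.866). It was lowest for the means of cell cycle genes (0.884), hair shaft and inner root sheath genes (0.869) and keratin-associated protein genes (0.909) and for Flg (0.95). Other day 10 libraries stood apart for Col11a1 (replicate 4 lowest, 0.858), Pcolce2 (replicate 4 highest, 0.882), Lyve1 (replicate 1 lowest, 0.922), Pdgfra (replicate 1 highest, 0.908), S100a8 (replicate 1 highest, 0.842) and Prf1 (replicate 2 highest, 0.859). On day 0, replicate 1 was highest for the mean of melanocyte genes (0.849), and replicate 4 was lowest for Col6a3 (0.931), Eln (0.968), Hbb-bs (0.933) and Krt17 (0.922).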

How the results depend on the processing

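The counts of genes called depended mostly on the filter, the scale and the limit on the fold change, and to a lesser degree on the day 0 libraries. With at least 10 counts in every library, 277 genes were called higher and 400 lower against day 0, 54 and 158 than on day 7, and 106 and 201 than on day 12. With limma on log2(FPKM + 1) the counts were 188 and 228, 21 and 169, and 70 and 246. With a mean FPKM of at least 1 they were 188 and 228, 21 and 158, and 70 and 242. With log2(FPKM + 0.1) they were 480 and 505, 78 and 340, and 166 higher than on day 12. With a limit of 1 they were 1315 and 1660, 595 and 911, and 789 and 995, and with no limit 4258 and 4871, 2584 and 3262, and 3744 and 3383. Leaving out libraries in turn gave 764 to 892 higher and 908 to 954 lower than on day 0, 214 to 253 and 513 to 538 than on day 7, and 403 to 437 and 595 to 640 than on day 12. Against day 0, leaving out replicates 1 and 4 of that day gave 1038 and 1064, and leaving out replicates 2 and 3 gave 826 and 881. On the 8 libraries of days 0 and 10 alone, edgeR called 569 and 681. Limma voom with weights per day called 659 and 778. The correlation of same-numbered libraries lay near 0, which gives no sign of pairing but cannot show that they share nothing else. A replicate block gave 770 and 880, 222 and 532, and 426 and 607. Direction turned, past the test, without day 0 replicates 1 and 4 for Col1a2 (-0.36), Ccn2 (0.75), Ccl2 (0.57) and Krt5 (0.32), and without replicates 2 and 3 for Dbp (-0.63), Acta2 (-0.24), Pcolce (0.50), Mmp9 (0.90), Tagln (-0.36) and Myog (-0.77). In edgeR on the 8 libraries of days 0 and 10 alone, Col1a1, Dcn, Fbn1, Timp2, Timp4, Scx, Flt4, Krt17, Krt25, Hoxc13, Ppargc1a and Myh3 no longer passed. The causes were not tested.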
